A study of Mus musculus with 6 samples.

Results

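The genes for mitochondrial ribosomal proteins were taken as every gene whose symbol is Mrpl or Mrps followed by a number, with or without a closing letter a to c. By this rule 78 of the 54446 genes in the liver count tables were chosen, 49 with an Mrpl and 29 with an Mrps symbol. The data are bulk mRNA sequencing of whole liver, with 1 library from each of 3 WT and 3 Fmo5-/- mice, all adult males on a C57BL/6J background (C57BL/6 in the labels). Fmo5-/- mice lack flavin-containing monooxygenase 5, a protein abundant in liver, in all cells of the body, so the deletion is not limited to the liver. The labels name no treatment in either group. The libraries held 44886286 to 52338675 counts on genes, of which the 78 genes took 104313 to 120912.

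Mitochondria carry their own ribosome, which translates the mRNAs of the mitochondrial genome. In mammals those mRNAs all encode subunits of the oxidative phosphorylation complexes. The RNA of this ribosome is made in the organelle, whereas its proteins are encoded in the nucleus, made in the cytosol and imported. Some of the proteins have a counterpart in bacterial ribosomes and others are found only in mitochondria. The symbols do not always name the right particle. Mrps30 and Mrps18a belong to the large subunit, and the product of Mrps36 is a component of the oxoglutarate dehydrogenase complex. With these placed by role, 51 genes belonged to the large and 26 to the small subunit.

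The targeted gene was examined first. Among WT mice its normalized counts were 39808, 37405 and 30240, and among Fmo5-/- mice 1071, 1102 and 1194. The libraries thus matched their labels.

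No mitochondrial ribosomal protein gene passed the test between genotypes, but most had a slightly lower mean in Fmo5-/- mice under the main scaling. Of the 77 genes that could be tested, 0 had an adjusted p under 0.05 by edgeR's quasi-likelihood test, where 1.37% of all 16734 tested genes did. At an unadjusted p under 0.05 there were 10, all of them lower in Fmo5-/- mice, beside 10.2% of all genes and 17.6% of genes with a mean count of 500 or more. Without WT mouse 1 that number was 5, all lower, where 1052 of all 17224 tested genes were lower at this p. Without Fmo5-/- mouse 1 it was 5, beside 1688 of 17043, and without WT mouse 3 it was 6, beside 1691 of 17091. With genes under a mean of 500 removed before the fit it was 6, of which 5 were lower. In that fit 1808 of 7820 genes had such a p, 873 of them lower. With library totals alone it was 5, of which 4 were lower and Mrpl18 was higher. In that setting 3831 of all 16734 genes had such a p, 692 of them lower. DESeq2 called 5 of the 77 genes, all lower, where it called 4.21% of all genes and 6.77% of those with a mean of 500 or more lower. These were Mrps22, Mrpl9, Mrpl34, Mrpl16 and Mrps31. Without a filter on low counts edgeR called 5, beside 2.62% of all genes and 9.0% of abundant ones, and with reads of 1 strand it called Mrps22 alone, beside 0.711%.

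The mean was lower in Fmo5-/- mice for 70 genes and higher for 7, with a median log2 fold change of -0.11. Over all tested genes the median was 0.01 and 49.2% had a lower mean. Abundant genes as a whole were lower more often, with a median of -0.06 and 64.0% lower among the 7819 genes with a mean of 500 or more. Of the 73 mitochondrial ribosomal protein genes above that level, 68 were lower. In 28 genes every Fmo5-/- mouse lay below every WT mouse, beside 13.5% of all genes and 21.9% of abundant genes. Only Mrpl18 lay above in every Fmo5-/- mouse, beside 13.9% and 9.39%. The differences were small, with a largest absolute value of 0.42. For 72 of the 77 genes the 95% confidence interval lay within 0.5 of zero on the log2 scale.

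**Figure D1:**
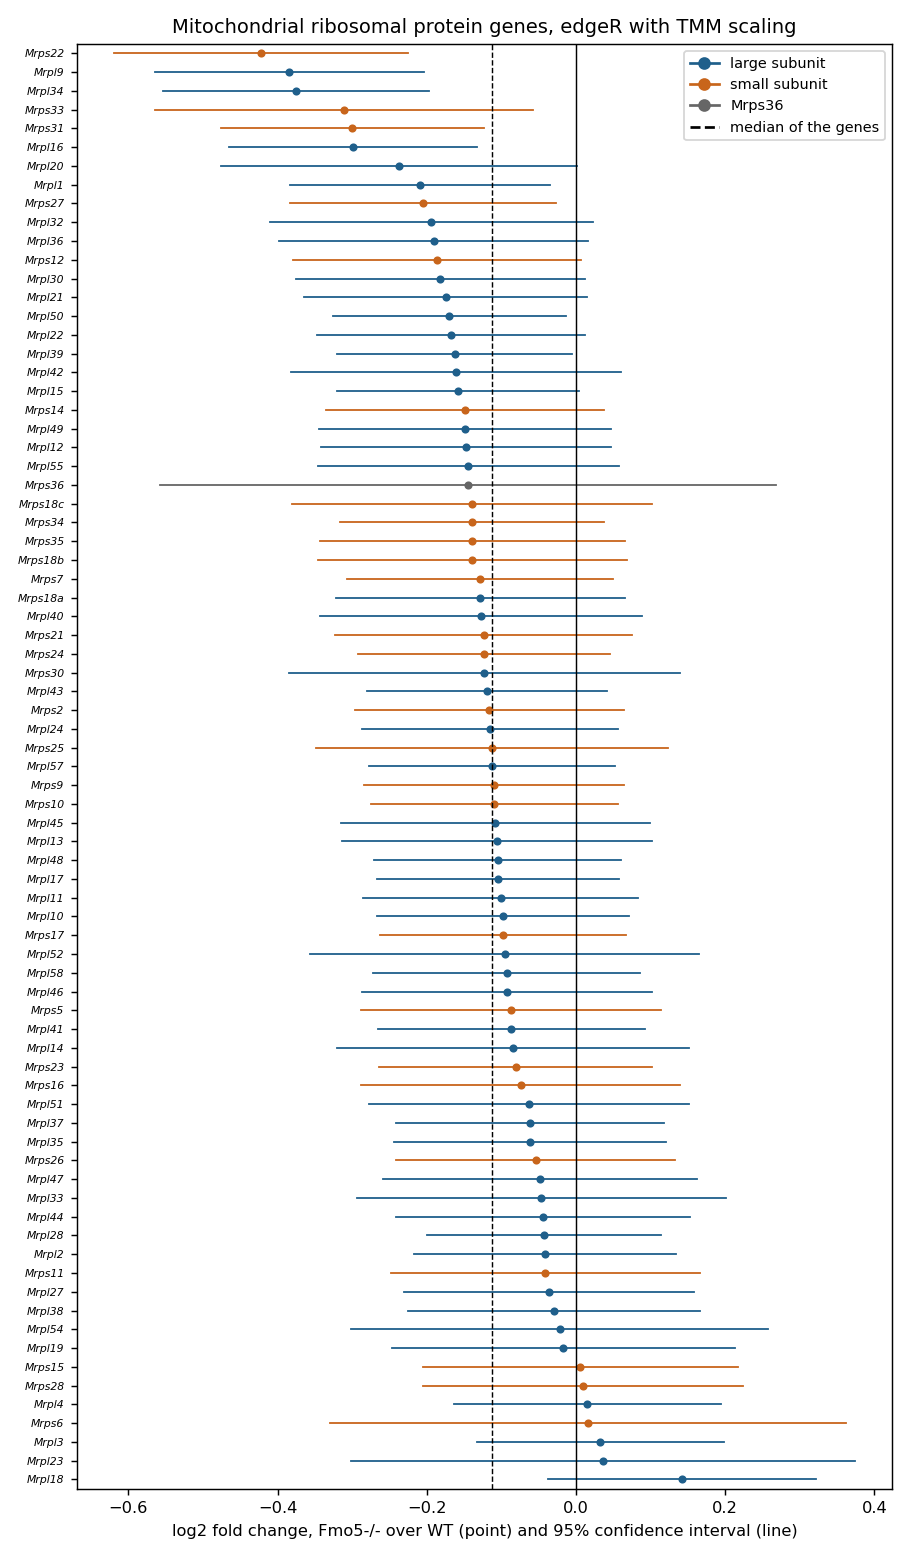
Log2 fold change of 77 mitochondrial ribosomal protein genes, Fmo5-/- over WT, with edgeR and TMM scaling (points) and 95% confidence intervals (lines), coloured by subunit. Under this scaling 70 points lie below 0, with the median at -0.11 (dashed), and with library totals alone the median is at -0.00055.

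The direction depended on how libraries were scaled. TMM, which trims extreme genes before it sets the library sizes, put the log2 scale of the Fmo5-/- libraries 0.109 above that of the WT libraries. With library totals alone, a setting added after the data were seen, 39 of 77 genes were lower and the median was -0.00055, while the median of all genes moved to 0.12. In that setting 5 genes were lower and 2 higher without overlap, beside 5.8% and 22.8% of all genes. With genes under a mean of 500 removed before the fit, 9 were lower and 2 higher without overlap, beside 14.5% and 14.8%. Unscaled, the genes summed to 2313, 2324 and 2355 CPM (counts scaled to library size) in WT and to 2109, 2463 and 2371 in the Fmo5-/- mice, so the groups overlapped. After TMM scaling the sums were 2417, 2386 and 2463 for WT and 2107, 2274 and 2298 for Fmo5-/- mice, without overlap. Relative to the median of all genes, the median of these genes was lower under both scalings.

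**Figure D2:**
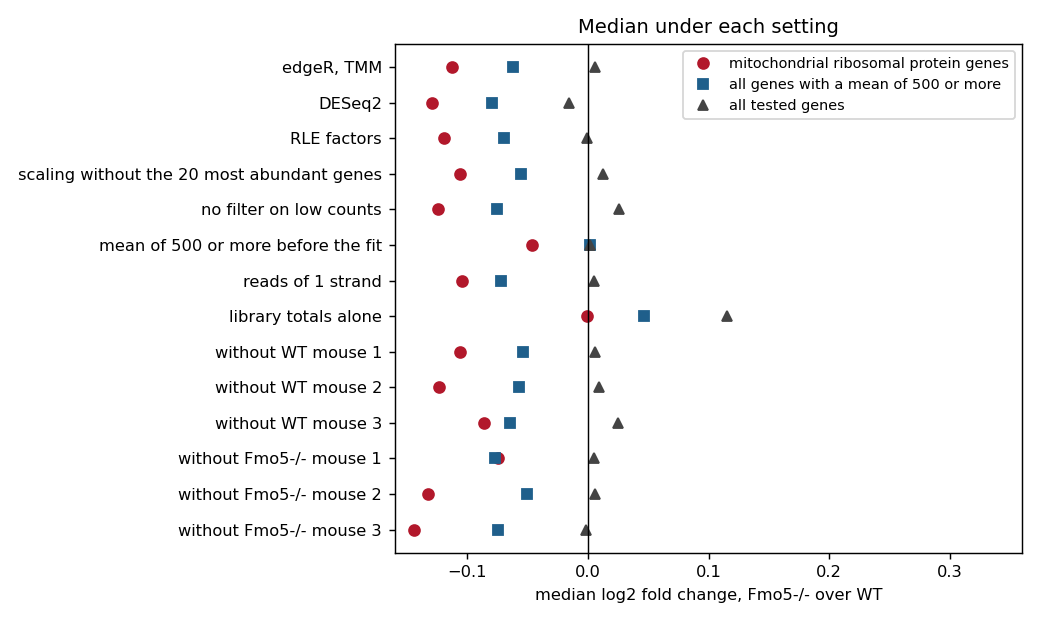
Median log2 fold change, Fmo5-/- over WT, of the mitochondrial ribosomal protein genes (circles), of genes with a mean count of 500 or more (squares) and of all tested genes (triangles) under each setting. The circles lie left of the triangles throughout, whereas their distance from 0 varies from -0.14 to -0.00055.

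The mice of a group also differed. The median over the 77 genes of the log2 ratio to the WT mean was -0.01, -0.03 and 0.04 in the WT mice and -0.20, -0.09 and -0.06 in the Fmo5-/- mice. Fmo5-/- mouse 1 had the lowest value of the 6 in 60 of the genes. Without that mouse the median log2 fold change was -0.07, which was close to the median of -0.08 for abundant genes, and 62 genes were lower.

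**Figure D3:**
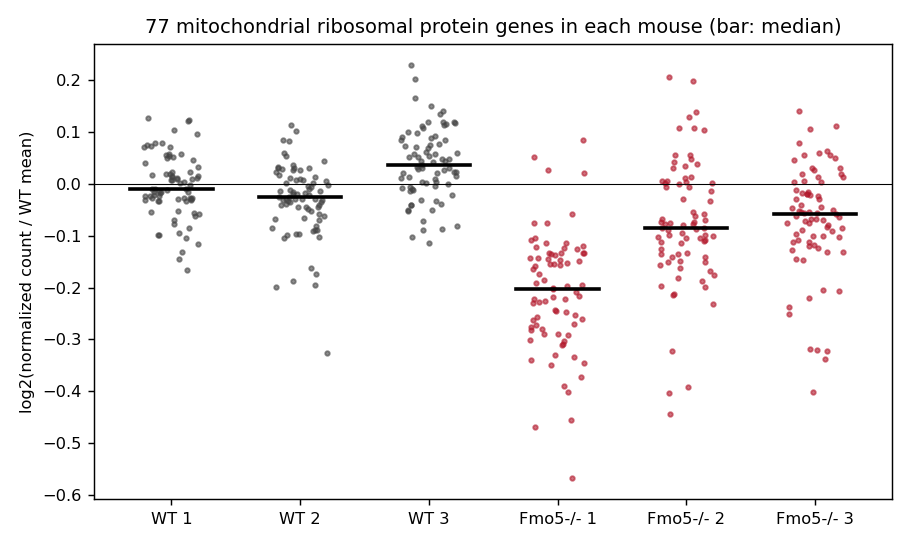
Log2 ratio of the TMM-scaled count to the WT mean for 77 genes (points) in each of the 6 mice, with the median as a bar. The bar of Fmo5-/- mouse 1 stands at -0.20 and those of the other Fmo5-/- mice at -0.09 and -0.06.

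Some shares of reads not counted on genes differed between the genotypes without overlap. Reads that mapped to several places made up 11.8% to 13.1% in WT and 10.4% to 11.5% in Fmo5-/- mice, and unmapped reads 9.72% to 10.1% and 9.10% to 9.20%. The levels of some marker lists for other cell types were apart between the genotypes too. By edgeR only 1 of their genes passed, the Kupffer cell marker Clec4f, beside 1.37% of all genes. DESeq2 called 8, where it called 739 of all 15571 genes higher and 656 lower. Higher were the Kupffer cell markers Clec4f, Cd5l, Vsig4 and Marco, the lymphocyte markers Ptprc and Cd3e and the neutrophil marker S100a9. The fat cell marker Cfd was lower. The summed level of 5 Kupffer cell markers was 146 to 175 CPM in WT and 234 to 429 in Fmo5-/- mice. Of the 5, 4 were higher without overlap, beside 13.9% of all genes. Marco overlapped, with normalized counts of 721, 468 and 790 in WT and 4989, 3710 and 676 in Fmo5-/- mice. The summed levels of lymphocyte, neutrophil and fat cell markers did not overlap either, at 12.2 to 16.7 against 17.8 to 38.7, 0.775 to 2.32 against 2.37 to 4.99, and 9.28 to 21.3 against 0.865 to 2.84. In the fat cell list 1 of the 3 markers, Cfd, was lower without overlap, beside 13.5% of all genes. Cfd had normalized counts of 452 to 953 in WT and 40.3 to 129 in Fmo5-/- mice. It made up nearly all of the fat cell sum. The sums of hepatocyte, endothelial, stellate cell, cholangiocyte, red blood cell and acinar cell markers overlapped, and none of the markers was at 0 in all libraries. The part of these shifts in the levels below was not tested, and in bulk liver fewer cells of a type cannot be told apart from less RNA per cell.

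The genes with the smallest p are shown with the sequence before their start, since the promoters of these genes are known for binding sites of nuclear respiratory factors. The lines give 100 bases that end 1 base before the RefSeq start, 5′ to 3′ on the gene's strand, from build GRCm38.p6. They lie at chr9:98601680-98601779 (minus strand) for Mrps22, chr3:94443236-94443335 (plus) for Mrpl9, chr8:71464826-71464925 (plus) for Mrpl34 and chr19:11770315-11770414 (plus) for Mrpl16. Mrpl3, at chr9:105053168-105053267 (plus), is shown as a gene with almost equal means in both genotypes under TMM scaling. Capitals mark CCGGAAG, the core bound by ETS factors such as GABP, and GCGCATGCG, the core bound by NRF1, each searched on both strands.
Mrps22: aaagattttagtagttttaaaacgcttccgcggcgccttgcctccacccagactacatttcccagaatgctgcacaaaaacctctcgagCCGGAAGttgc
Mrpl9: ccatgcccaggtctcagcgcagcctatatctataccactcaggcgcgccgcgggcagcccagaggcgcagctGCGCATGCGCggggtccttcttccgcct
Mrpl34: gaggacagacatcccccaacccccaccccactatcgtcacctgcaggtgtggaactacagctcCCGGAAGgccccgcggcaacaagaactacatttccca
Mrpl16: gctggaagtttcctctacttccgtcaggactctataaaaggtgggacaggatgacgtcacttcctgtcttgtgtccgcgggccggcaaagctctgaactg
Mrpl3: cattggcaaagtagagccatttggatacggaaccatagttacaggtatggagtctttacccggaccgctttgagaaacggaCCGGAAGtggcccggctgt

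The ETS core began 11 bases before the start in Mrps22, 37 in Mrpl34 and 19 in Mrpl3. In Mrpl9 the NRF1 core was read on both strands, in 2 copies that overlap and begin 28 and 27 bases before the start. The stretch of Mrpl16 held none of these letters. Among the 10 genes with the smallest p and a lower mean, 4 had such a core in these 100 bases (Mrps22, Mrpl9, Mrpl34 and Mrps27). Among the 7 other named genes with a stretch only Mrpl3 had one, and Mrps15, whose means were closer, had none. In the wider windows described next, the ETS core was also in Mrps33, and in Mrpl18 and Mrps21 of the other named genes. There the NRF1 core was also in Mrpl39. The counts thus depended on the stretch searched. No share over all genes is given for the 100 bases, and a link with the genotype difference was not tested.

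RefSeq windows of 300 bases around the start were at hand for 69 of the 78 genes, in 75 windows. The ETS core was in 34.7% of these windows, in 8.86% of all 32851 windows and in 11.6% of the 21263 windows of protein-coding genes. The NRF1 core was in 9.33%, against 1.75% and 2.35%. AAGATGGCG, the core bound by YY1, was in 10.7%, against 1.4% and 1.83%. GGGGCGGGG, bound by SP1, was in 20%, against 11.4% and 15.4%, and CCAAT in 40%, against 37.4% and 38.2%. A match describes letters only.

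Mrps22, a small subunit protein found only in mitochondria, had the largest difference under TMM scaling with all 6 mice and counts of both strands. With reads of 1 strand Mrps36, a gene with low counts, had a larger one. Mrpl34 had a larger one without WT mouse 1, and Mrpl9 without WT mouse 3 or Fmo5-/- mouse 1. Normalized counts of Mrps22 were 1477, 1375 and 1430 in WT mice and 963, 1088 and 1145 in Fmo5-/- mice, and the groups did not overlap. The Fmo5-/- mean was 74.6% of the WT mean, a log2 fold change of -0.42 ± 0.09 (SE), with an edgeR adjusted p of 0.0552. It passed DESeq2 (adjusted p = 0.00476), and edgeR without Fmo5-/- mouse 3 (adjusted p = 0.0359). When each mouse was left out in turn the edgeR adjusted p ranged up to 0.174, and with library totals alone it was 0.0979.

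Mrpl9, a large subunit protein with a bacterial counterpart, had counts of 2495, 2381 and 2221 in WT and 1909, 1738 and 1791 in Fmo5-/- mice. The groups did not overlap, and the log2 fold change was -0.38 ± 0.08 (SE; edgeR adjusted p = 0.0552). This gene lies on chromosome 3, 3.19 Mb from Fmo5. Within 20 Mb of Fmo5, 4.22% of 427 tested genes were called by edgeR, against 1.29% of genes elsewhere, and whether DNA around the deleted gene differs in origin was not tested. Mrps21 and Mrpl24, the other mitochondrial ribosomal protein genes in that window, had overlapping groups, with log2 fold changes of -0.12 and -0.12. With library totals alone these were -0.01 and -0.005. When each mouse was left out, Mrps21 ranged from -0.19 to -0.05.

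Mrpl34, a small protein of the large subunit, had counts of 1411, 1529 and 1483 in WT and 1065, 1178 and 1166 in Fmo5-/- mice. All Fmo5-/- values lay below all WT values, with a log2 fold change of -0.38 ± 0.08 (SE; edgeR adjusted p = 0.0554). Mrpl16, which lies near the catalytic centre of the large subunit, had counts of 1951, 1862 and 1879 in WT and 1494, 1615 and 1517 in Fmo5-/- mice. Its log2 fold change was -0.30 ± 0.07 (SE; edgeR adjusted p = 0.0719). Mrps31, a small subunit protein found only in mitochondria, had counts of 1996, 2102 and 2112 in WT and 1724, 1565 and 1756 in Fmo5-/- mice. It too was without overlap, at -0.30 ± 0.08 (SE; edgeR adjusted p = 0.0804). With library totals alone the log2 fold changes of these 5 genes stayed below 0, from -0.31 for Mrps22 to -0.19 for Mrpl16.

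**Figure D4:**
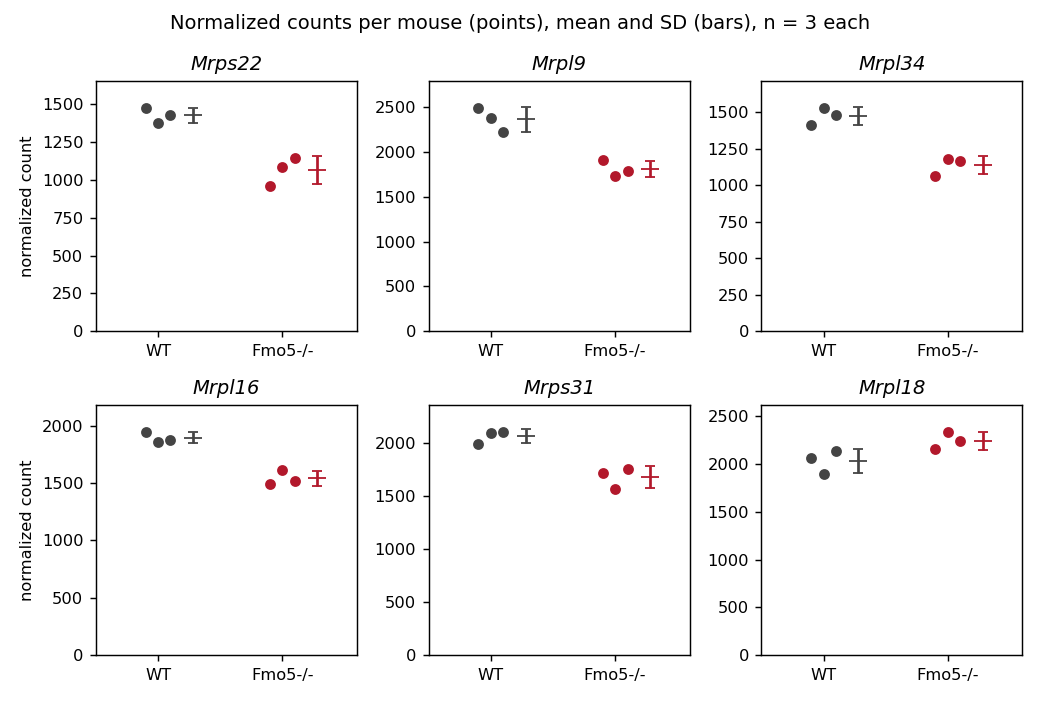
Normalized counts of 6 genes in each mouse (points) with mean and SD (bars), n = 3 per genotype, TMM scaling. In Mrps22, Mrpl9, Mrpl34, Mrpl16 and Mrps31 all Fmo5-/- mice lie below all WT mice, and in Mrpl18 above.

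The remaining genes with an unadjusted p under 0.05 were Mrps33, Mrpl1, Mrps27, Mrpl50 and Mrpl39, with log2 fold changes of -0.31, -0.21, -0.20, -0.17 and -0.16. In each the groups did not overlap, and edgeR adjusted p ran from 0.154 for Mrps33 to 0.215 for Mrpl39. Scaled by library totals alone, they lay between -0.20 for Mrps33 and -0.05 for Mrpl39 (unadjusted edgeR p of 0.144 to 0.502). On the other side stood Mrpl18, with counts of 2063, 1898 and 2141 in WT and 2154, 2342 and 2238 in Fmo5-/- mice. Its log2 fold change was 0.14 ± 0.08 (SE; edgeR adjusted p = 0.339). Mrpl23, Mrpl3, Mrps6, Mrpl4, Mrps28 and Mrps15 had a higher mean by 0.04 at most under TMM scaling, with overlapping groups. With library totals alone these 6 lay between 0.12 for Mrps15 and 0.15 for Mrpl23, with Mrpl3 at 0.14, and Mrpl18 stood at 0.25 (edgeR adjusted p = 0.124).

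The genes were also counted by subunit. Of 50 tested large subunit genes 46 were lower, with a median log2 fold change of -0.11, and of 26 small subunit genes 23 were lower, with a median of -0.12. Among genes with a bacterial counterpart 39 of 46 were lower (median -0.11), and among those found only in mitochondria all 30 were (median -0.12). These counts belong to TMM scaling. Scaled by library totals alone, 22 of the 46 (median 0.004) and 16 of the 30 (median -0.005) were lower, and 23 of 50 large and 15 of 26 small subunit genes. The difference between these groups was not tested. Mrps36, outside the ribosome, had overlapping groups and a log2 fold change of -0.14 ± 0.18 (SE). With reads of 1 strand it was -0.54, the lowest of the genes in that setting. Its raw counts were only 136 to 214 per library with both strands, and reads of 1 strand are fewer. Mrps36 stood at -0.03 with library totals alone and ranged from -0.29 to -0.04 when each mouse was left out.

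Levels spanned a wide range among proteins of 1 particle. In TMM-scaled CPM per kb of exon, the median gene stood at 11.1. By the mean over all 6 mice Mrpl14 was highest, at 54.8 ± 5.72 in WT and 51.7 ± 5.04 in Fmo5-/- mice (SD, n = 3), followed by Mrpl2, Mrpl12, Mrps21 and Mrpl34. In WT mice alone Mrpl34 came second, at 49.8 ± 2.01 (38.4 ± 2.1 in Fmo5-/- mice), before Mrpl2 at 47.9 ± 0.845, Mrpl12 at 47.9 ± 3.62 and Mrps21 at 46.7 ± 0.666. Of neighbours in that WT order, Mrpl14 and Mrpl34, Mrpl34 and Mrpl2, Mrpl2 and Mrpl12, and Mrpl12 and Mrps21 did not differ beyond their summed SDs. At the low end were Mrps30, Mrpl33, Mrps25 and Mrpl23, the last at 1.21 ± 0.138 in WT. With the longest annotated transcript as length, 4 of the top 5 and 4 of the bottom 5 were shared.

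**Figure D5:**
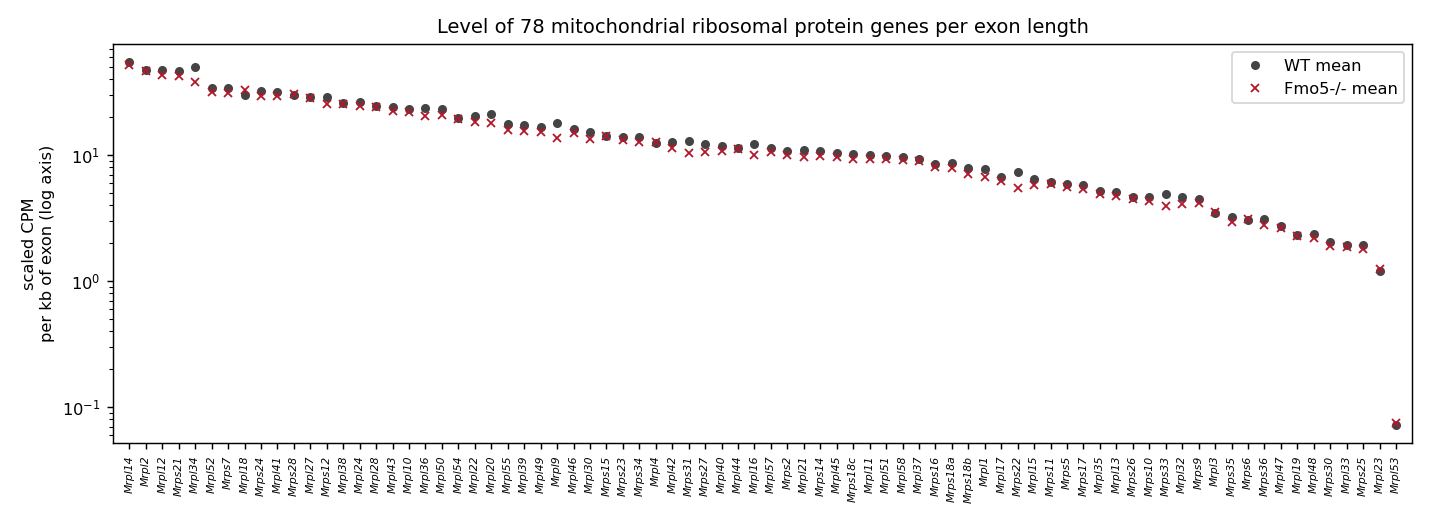
Level of 78 genes per exon length (log axis) in WT (circles) and Fmo5-/- mice (crosses), means of n = 3, ordered by level. Mrpl14 leads and Mrpl53 stands apart at the foot, at 0.0725 in WT.

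Counting limited some of these levels. Mrpl53 had raw counts of 3, 1 and 4 in WT and 2, 1 and 6 in Fmo5-/- mice and was not tested. Of its exon bases 88% lie in the exons of Gm42688, and reads that fall in more than 1 gene were not counted. In all, 33 of the 78 genes shared exon bases with another gene, 28 of them with a gene on the opposite strand, and 9 shared at least 20% of their exon bases with a single other gene. Among them was Mrps25, one of the lowest levels, with 69.8% of its exon bases in the exons of Nr2c2 on the opposite strand. Reads in more than 1 gene made up 3.52% to 3.62% of the reads in WT and 3.72% to 3.98% in Fmo5-/- mice, without overlap, and their part in the values of these 33 genes was not tested. The counts of both strands were used, and reads of these genes split almost equally between strands (50.8% to 51.3% on the first), so strand cannot separate overlapping genes.

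Many of these genes start near the start of another gene on the opposite strand. A protein-coding gene began within 1 kb on the opposite strand for 42.3% of them, against 10.9% of all 21918 protein-coding genes. Examples are Mrpl36 with Ndufs6, a complex I subunit, 29 bases apart, and Mrps12 with Sars2, the mitochondrial seryl-tRNA synthetase. Of the 30 tested partners outside the set, 14 had a lower mean in Fmo5-/- mice and the median log2 fold change was 0.01. Only Wdfy1 passed the test by edgeR, higher by 1.01 (adjusted p = 0.000782), while its neighbour Mrpl44 had -0.04 and overlapping groups. The starts of Wdfy1 and Mrpl44 are 125 bases apart, and the genes share 126 exon bases.

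Other genes of mitochondrial translation were grouped by role. Of 14 tested translation factors 13 were lower, with a median log2 fold change of -0.15, and 1 was called by edgeR, beside 1.37% of all genes. Scaled by library totals alone, 8 were lower, with a median of -0.04. The called gene was Gfm1, the elongation factor that moves the mitochondrial ribosome along the mRNA. It had counts of 4844, 4826 and 4384 in WT and 3402, 3172 and 3235 in Fmo5-/- mice. Gfm1 fell by 0.52 on the log2 scale (edgeR adjusted p = 0.0241), and by 0.41 with library totals alone (adjusted p = 0.0388). The call was lost without WT mouse 1 or 2 and without Fmo5-/- mouse 1 or 2, with edgeR adjusted p of 0.0632 to 0.1, while the log2 fold change stayed between -0.56 and -0.49 over all 6 mice left out. It lies on chromosome 3, 30.2 Mb from Fmo5.

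Of 5 mitochondrial ribosomal proteins with other symbols 4 were lower and 0 passed edgeR's test, with Ptcd3, a small subunit protein, at -0.27 ± 0.08 (SE; edgeR adjusted p = 0.095). Of 27 assembly factors 17 were lower and 0 passed (median -0.06). Of 17 mitochondrial aminoacyl-tRNA synthetases 12 were lower and 0 passed (median -0.05), and Wars2 had the smallest p, at 0.44 ± 0.12 (SE; edgeR adjusted p = 0.0858). Wars2 lies 1.51 Mb from Fmo5 on chromosome 3. Among 15 genes of mitochondrial transcription and its regulators 5 were lower and 0 passed (median 0.05). Of these, Gabpa, the DNA-binding subunit of GABP, had -0.26 (edgeR adjusted p = 0.121), Tfam -0.22 (edgeR adjusted p = 0.161) and Nrf1 0.003. Under library totals alone 10 of the 27 assembly factors (median 0.05) and 6 of the 17 synthetases (median 0.05) were lower, so both medians turned with the scaling. The median of the proteins with other symbols turned too, to 0.002, with Ptcd3 at -0.16. Of the transcription genes 3 were lower in that setting (median 0.16), with Gabpa at -0.16, Tfam at -0.11 and Nrf1 at 0.11. Single mice also moved these medians. Leaving out each in turn, the median was -0.062 to -0.033 for the assembly factors and -0.074 to -0.01 for the synthetases, closest to 0 without WT mouse 2 in both. For the transcription genes it ran from -0.0083 without WT mouse 1 to 0.091 without WT mouse 3.

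The RNA of the particle itself did not pass edgeR's test. The small subunit rRNA mt-Rnr1 had counts of 121784, 102955 and 110309 in WT and 83061, 94848 and 92828 in Fmo5-/- mice, without overlap, at -0.31 ± 0.10 (SE; edgeR adjusted p = 0.135; DESeq2 adjusted p = 0.0386). The large subunit rRNA mt-Rnr2 overlapped, at -0.09 ± 0.10 (SE; edgeR adjusted p = 0.65). Under library totals alone mt-Rnr1 stood at -0.19 and mt-Rnr2 at 0.02, while edgeR without a filter on low counts called 1 of the 2 rRNAs lower. The libraries were made from mRNA, so these counts reflect what that selection kept.

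Of 79 nuclear genes for oxidative phosphorylation subunits 77 were lower (median -0.18). By edgeR 0 passed. At an unadjusted p under 0.05 there were 20, all lower, beside 10.2% of all genes and 17.6% of abundant ones. This number was 6 without WT mouse 1, 10 without Fmo5-/- mouse 1 and 11 without WT mouse 3. Over all genes 1052 of 17224, 1688 of 17043 and 1691 of 17091 were lower at this p in those fits. With library totals alone it was 3, beside 692 of 16734. With genes under a mean of 500 removed before the fit it was 7 of 72, beside 873 of 7820. It was 27 without WT mouse 2, 25 with DESeq2 and 33 without a filter on low counts. Beside these stood 1357 of 17270, 1721 of 15571 and 2363 of 34200 genes, and without a filter 1701 of 7820 abundant ones. DESeq2 called 3, all lower, beside 4.21% of all genes and 6.77% of abundant ones, and edgeR without a filter on low counts called 3, all lower, beside 2.62% and 9.0%. Without overlap 30 were lower, beside 13.5% of all genes and 21.9% of abundant ones, and this number was 62 without WT mouse 2 and 48 without Fmo5-/- mouse 3, where the share of all genes was 18.2% and 17.7%. It was 7 with library totals alone and 11 with genes under a mean of 500 removed before the fit, beside 5.8% and 14.5% of all genes. Of 83 cytosolic ribosomal protein genes 71 were lower (median -0.06), and 6 were lower without overlap. Without WT mouse 3 only 32 were lower (median 0.01), and without Fmo5-/- mouse 1 only 40 (median 0.01). The number without overlap was 13 without WT mouse 2 and 15 without Fmo5-/- mouse 3. By edgeR 3 of the 83 passed, beside 1.37% of all genes, Rps3a1 and Rps3a2 lower and Rps3a3 higher, which are near-identical copies whose reads counting can split and so are uncertain. With library totals alone the medians of the oxidative phosphorylation and cytosolic sets were -0.07 and 0.06. With genes under a mean of 500 removed before the fit they were -0.11 and 0.003, and 37 of 79 cytosolic genes were lower. The direction of the cytosolic set thus turned in both settings as well as with the mice included.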

How the data were processed

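Livers of 3 WT and 3 Fmo5-/- mice were sequenced as single reads from mRNA libraries. The authors mapped reads with STAR and deposited raw counts per gene for each library, for both strands and for each strand. Reads that named no gene (30.8% to 33.8%) were left out. The authors also deposited a DESeq2 table, whose signal columns hold counts that the authors divided by 1 size factor per library. The log2, score and p-value columns deposited by the authors hold their own comparison and were not used. The annotation release is not given in the sources used here. Positions came from GENCODE on GRCm38, matched by Ensembl identifier, and promoter sequences from RefSeq.

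Counts of both strands were kept by filterByExpr (minimum count 10), scaled by TMM and tested with edgeR 4.0.16 in R 4.3.3 by the robust quasi-likelihood test, with Benjamini-Hochberg adjustment over 16734 genes and a threshold of 0.05. Normalized counts are TMM-scaled. DESeq2 1.42.0, other scalings and filters, 1 strand and leaving out each library were alternatives. The fit was tested on simulated data, with no outcome reported here. With 3 mice against 3, an exact permutation test cannot go below 0.1. The edgeR p-values weigh the genotype difference against the spread between mice of a genotype, which edgeR estimates partly from all genes. The genes and lists were chosen with earlier results of these data known. Named are Fmo5, the 10 genes with the smallest p in each direction, the 5 highest and lowest levels, genes within 20 Mb of Fmo5, and from other lists called genes and some of the 3 smallest p. Nrf1, Mrps36, Mrpl53, Mrpl44, Mrpl36, Mrps12 and the genes that start or overlap next to a named gene lie outside this rule and were chosen after their values were seen.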

Additional observations from a re-analysis of the deposited data

How the results depend on the processing

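No paired analysis was run, since the genotypes are different mice and the labels link no WT mouse to an Fmo5-/- mouse. Calls among the mitochondrial ribosomal protein genes moved from 0 to 5 with DESeq2, to 5 without a filter on low counts and to 1 with reads of 1 strand, all lower, and were 0 to 1 when each mouse was left out. Calls over all genes moved from 229 to 1395 with DESeq2, 1989 without a filter, 53 with a mean of 500 or more set before the fit and 446 with library totals alone, and to 31 to 763 when each mouse was left out. The lowest count came without Fmo5-/- mouse 1 and the highest without Fmo5-/- mouse 3. The median log2 fold change moved to -0.0465 with the mean of 500 or more before the fit and to -0.00055 with library totals alone. Genes lower without overlap moved from 28 to 9 and 5 in the same settings, and those higher without overlap from 1 to 2 and 2. The latter count was 0 with RLE factors, 0 without a filter, 0 with reads of 1 strand and 1 to 2 when each mouse was left out. The median level moved from 11.1 to 13.7 with the longest transcript as length. Small positive differences turned negative with DESeq2 in Mrpl4 (-0.000714), Mrps28 (-0.00631) and Mrps15 (-0.00993), and without a filter in Mrps28 (-0.00249) and Mrps15 (-0.00602). When each mouse was left out, Mrpl23 ranged from -0.0474 to 0.146, Mrpl4 from -0.0269 to 0.079, Mrps6 from -0.0758 to 0.144, Mrps28 from -0.0414 to 0.085 and Mrps15 from -0.0448 to 0.084. In the other direction, 11 genes with a lower mean turned positive when some mouse was left out, with highest values from 0.00221 for Mrpl47 to 0.0841 for Mrpl54. The cause was not tested. With 3 mice per genotype, the median half-width of the 95% confidence interval was 0.193 on the log2 scale, which limits what could be called.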
